A study of Mus musculus with 6 samples.

Results

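The genes described here are 10 genes of plasma cell differentiation: Prdm1, Xbp1, Irf4, Zbtb20, Ell2, Jchain, Mzb1, Fkbp11, Sdc1 and Tnfrsf17. They were chosen by name, with earlier results of these data known, and each matched 1 of the 24499 genes in the count table by its symbol. RNA-seq had been performed on YFP+ iGCBs (in vitro germinal center B cells) from 3 cKO and 3 control mice, and the question asked of the members was whether Jchain fell together with its regulators or apart from them. Naïve splenic B cells of C57BL/6J mice had been cultured for 3 days with IL-4 at 1 ng/ml on irradiated 40LB cells, a fibroblast line made to express BAFF and CD40L.

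The cKO mice were Eif3e fl/fl Cγ1Cre Rosa26-YFP LSL, and the control mice carried Cγ1Cre and the same reporter without the floxed Eif3e alleles. Eif3e encodes a subunit of the translation initiation factor eIF3. Cγ1Cre is driven from the Igγ1 constant region locus and acts in activated B cells, and YFP marked cells in which Cre had been active, whether or not both Eif3e alleles were lost. Each library came from 1 mouse, so the spread between libraries is the spread between mice.

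Plasma cells arise from activated B cells when the transcription factors Irf4, Prdm1 (Blimp-1) and Xbp1 replace the B cell program with one of antibody secretion. Prdm1 silences genes such as Pax5 and raises antibody output, while Xbp1, activated by the unfolded protein response, enlarges the endoplasmic reticulum. Jchain encodes the joining chain that links IgM pentamers and IgA dimers, and is among the genes that rise strongly in antibody-secreting cells.

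Library totals lay between 39079582 and 45504570 estimated counts, at which 3 counts correspond to 0.0661 to 0.0763 CPM (counts per 1000000, with library sizes adjusted by TMM). Such a limit covers counting error only. Eif3e was at 173, 150 and 152 CPM in cKO replicates 1, 2 and 3 and at 424, 401 and 392 CPM in the control replicates, a log2 fold change of −1.36. The 6 pan-B markers summed to 3724 to 3821 CPM in cKO and 3463 to 3678 CPM in control libraries, so both groups carried the RNA of B cells. Immunoglobulin constant genes, 12 of which were looked for, had 0 matches in the table, so antibody heavy and light chain RNA was not analysed here. Xist RNA was present in cKO replicate 2 and control replicates 1 and 2, and RNA of 47 Y-linked genes in cKO replicates 1 and 3 and control replicate 3. The sex of the mice therefore differed within both groups, and differences among libraries of the same kind are given for Jchain. They are also given for tested members where these differences lay on different sides of the 1.5-fold cutoff or of 0.

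The bases just before the transcription start are shown for Jchain and for the regulators Prdm1 and Xbp1, which were called lower by the test below. Mzb1 and Sdc1 were also called and are not shown. They lie at chr5:88527898-88528047 (minus strand), chr10:44458749-44458898 (minus strand) and chr11:5520491-5520640 (plus strand) of RefSeq's GRCm38.p6 and read 5′ to 3′ toward the start. The stretch for Prdm1 lies inside the GENCODE gene, which begins farther upstream. Capitals mark matches to 9 short motifs that were searched on both strands.
Jchain: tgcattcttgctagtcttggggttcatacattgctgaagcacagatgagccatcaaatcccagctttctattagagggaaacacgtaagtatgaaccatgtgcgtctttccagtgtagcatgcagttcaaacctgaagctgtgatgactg
Prdm1: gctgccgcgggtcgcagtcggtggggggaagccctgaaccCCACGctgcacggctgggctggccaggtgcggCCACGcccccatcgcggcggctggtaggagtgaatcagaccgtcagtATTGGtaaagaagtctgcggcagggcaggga
Xbp1: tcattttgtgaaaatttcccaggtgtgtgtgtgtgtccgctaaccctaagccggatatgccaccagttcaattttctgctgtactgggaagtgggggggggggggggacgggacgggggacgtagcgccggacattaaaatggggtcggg

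The motifs were the CCAAT box, the box with the letters CCACG, the PU box GAGGAA, the octamer ATGCAAAT, the PRDM1 core GTGAAAG, the unfolded protein response element CCACGTCA, the interferon-type pair GAAANNGAAA, the ETS-IRF composite GGAANNGAAA and the ER stress element, which joins the CCAAT and CCACG boxes with a spacer and so overlaps both. In the 250 bases before the start, the windows of Jchain and Xbp1 held no match to any of them. Prdm1 held CCACG at 110 and 78 bases before the start, the CCAAT box, on the opposite strand, at 31 bases and the PU box, outside the bases shown, at 156 bases. Of 32851 RefSeq promoters, 33.8% held the CCAAT box, 28.3% the letters CCACG and 23.3% the PU box, and these were found in 4, 4 and 5 of 10 windows, which cover 9 of the members, with 2 windows for Fkbp11 and Mzb1 not among them. The PRDM1 core was in 3.57% of promoters, the ETS-IRF composite in 2.3%, the octamer in 1.6%, the unfolded protein response element in 0.563% and the ER stress element in 0.113%, each with 0 matches among the 10 windows. The interferon-type pair was in 2.98% of promoters and in 1 window, that of Tnfrsf17. A match is a run of letters and was not tested as a binding site.

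Of the 10 members, 9 passed the filter on low counts and were tested among 13296 genes with edgeR's quasi-likelihood test. A gene was called when its Benjamini-Hochberg adjusted p was under 0.05 and its fold change over 1.5. In cKO iGCBs, Jchain, Prdm1, Xbp1 and Mzb1 were lower and Sdc1 was higher than in control iGCBs. The call was made for 21.0% of all tested genes, 10.6% lower and 10.4% higher, against 4 members lower and 1 higher. By the adjusted p alone, 5 members were lower and 2 higher. For 8 of the 9 tested members, every cKO library lay on the same side of every control library, as was the case for 58.7% of all tested genes. The median log2 fold change of the tested members was −0.62, and that of all tested genes was −0.004. Members differed widely around this median, from −4.00 for Jchain to 1.60 for Sdc1. In bulk RNA, fewer cells that express a gene and less RNA in each cell cannot be told apart.

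**Figure D1:**
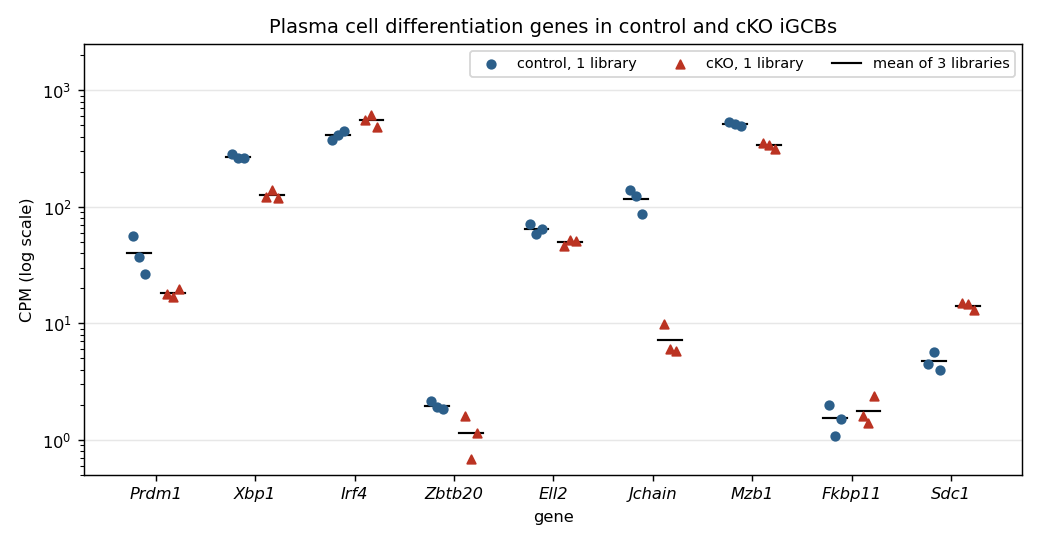
CPM on a log axis for the 9 tested members, with 1 point per library (circles, control; triangles, cKO) and a line at the mean of the 3 libraries. Tnfrsf17, at 0 counts in 4 of the 6 libraries, is not drawn. The gap between the groups is widest for Jchain, and Sdc1 and Irf4 are the members whose cKO points all lie above the control points.

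Prdm1 (chromosome 10, 44437177 to 44528501, minus strand, GRCm38 with GENCODE M21) encodes Blimp-1, the transcriptional repressor that drives the plasma cell fate. It was measured at 18.0, 16.7 and 19.8 CPM in cKO replicates 1, 2 and 3 and at 55.7, 37.1 and 26.7 CPM in control replicates 1, 2 and 3. The cKO libraries were alike and all lay below the lowest control, while the control mice spread over a wider range, with replicate 1 highest and replicate 3 lowest. The coefficient of variation was 8.69% among cKO and 36.8% among control libraries (n = 3 each). Prdm1 fell by 1.13 on the log2 scale (standard error 0.217; 95% interval −1.62 to −0.65; edgeR adjusted p = 0.00161), to 45.6% of the control level. Among libraries with Xist RNA the difference in mean log2 CPM was −1.44, and among libraries with Y-linked RNA it was −0.50, with 1 library in an arm of each.

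Xbp1 (chromosome 11, 5520659 to 5525893, plus strand), the transcription factor of the unfolded protein response, was at 121, 139 and 119 CPM in cKO and at 282, 264 and 263 CPM in control replicates. Both groups were tight, and the highest cKO library lay well below the lowest control. The log2 fold change was −1.10 (standard error 0.0674; 95% interval −1.25 to −0.95; edgeR adjusted p = 1.94e-06), so Xbp1 fell to 46.7% of its control level. The number of Xbp1 counts per Prdm1 count was 6.72, 8.32 and 5.97 in cKO and 5.06, 7.13 and 9.85 in control libraries. These ratios overlapped, with cKO values inside the control range in every replicate (exact permutation test, two-sided, p = 0.9), although with 3 mice a group this does not show equal change. All Xbp1 counts in the transcript table were assigned to the unspliced form, and the form made by Ire1 splicing was listed at 0 counts in all 6 libraries. These forms differ by a short retained stretch, and how the authors' quantification divided reads between them is not known, so splicing of Xbp1 was not analysed here.

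Irf4 (chromosome 13, 30749226 to 30766976, plus strand), which at high levels promotes plasma cells and is needed for Prdm1 expression, had higher levels in cKO, under the fold cutoff. It was at 561, 612 and 489 CPM in cKO and at 372, 416 and 451 CPM in control replicates. Every cKO library lay above every control library, although cKO replicate 3 and control replicate 3 were close. The log2 fold change was 0.42 (standard error 0.0891; 95% interval 0.23 to 0.62; edgeR adjusted p = 0.00282), which passed the adjusted p but not the 1.5-fold cutoff. The difference in mean log2 CPM was 0.64 among libraries with Xist RNA and 0.22 among those with Y-linked RNA. Irf4 counts per Prdm1 count were 31.2, 36.6 and 24.6 in cKO and 6.69, 11.2 and 16.9 in control libraries, without overlap, and the difference was 2.81-fold on the scale of log2 CPM with a prior count of 2. Per Xbp1 count, Irf4 had 4.64, 4.40 and 4.12 counts in cKO and 1.32, 1.57 and 1.71 counts in control libraries, a 2.87-fold difference on the same scale. Both ratios gave a two-sided exact permutation p of 0.1, the smallest that 3 against 3 libraries allow.

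Zbtb20, a zinc finger repressor that sustains long-lived plasma cells, was low, at 1.61, 0.689 and 1.13 CPM in cKO and 2.15, 1.91 and 1.82 CPM in control replicates. The groups did not overlap, but cKO replicates varied and the difference did not pass the test (log2 fold change −0.78; 95% interval −1.57 to 0.01; edgeR adjusted p = 0.0962). Without cKO replicate 1, the log2 fold change was −1.11 with an edgeR adjusted p of 0.0385, and without cKO replicate 2 it was −0.51 with an edgeR adjusted p of 0.253; leaving out cKO replicate 1 was the only such change with which it passed. The difference in mean log2 CPM was −1.49 among libraries with Xist RNA and −0.42 among those with Y-linked RNA. Its counts were also assigned to 3 transcripts in a way that differed between libraries of the same group.

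Ell2, the elongation factor that favors the secreted form of the immunoglobulin heavy chain mRNA, was at 46.5, 52.4 and 51.0 CPM in cKO and at 70.9, 58.7 and 64.5 CPM in control replicates. All cKO libraries lay below all control libraries, by a small margin. Its log2 fold change of −0.37 (standard error 0.083; 95% interval −0.56 to −0.19; edgeR adjusted p = 0.00396) passed the adjusted p and not the fold cutoff. An antisense gene overlaps exons of Ell2, and whether counting used the strand is not given in the sources used here.

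Jchain (chromosome 5, 88519809 to 88527891, minus strand) showed the largest decrease among the members. It was measured at 9.94, 5.98 and 5.82 CPM in cKO replicates 1, 2 and 3 and at 138, 125 and 86.2 CPM in the control replicates, or 451, 269 and 247 against 6235, 4898 and 3549 counts. No cKO library came near the control range, and the means were 7.25 ± 2.33 and 116 ± 27.0 CPM (SD, n = 3 each). The log2 fold change was −4.00 (standard error 0.232; 95% interval −4.52 to −3.49; edgeR adjusted p = 1.58e-06), a 16.0-fold decrease with an interval of 11.2-fold to 22.9-fold, which left 6.24% of the control level. Of 13296 tested genes, 11 had a lower fold change than Jchain, and 2 of these had a mean of at least 10 CPM. The difference in mean log2 CPM was −4.45 among libraries with Xist RNA and −3.49 among those with Y-linked RNA.

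Mzb1, an endoplasmic reticulum protein that aids antibody assembly and secretion, was at 355, 341 and 314 CPM in cKO and at 535, 518 and 495 CPM in control replicates. The groups did not overlap and each was tight. Mzb1 fell by 0.62 on the log2 scale (standard error 0.0586; edgeR adjusted p = 1.97e-05), a 1.53-fold decrease just past the cutoff, and the 95% interval of −0.75 to −0.49 spans it. Without cKO replicate 3 the log2 fold change was −0.57 and Mzb1 was not called. Libraries with Xist RNA differed by −0.63 and those with Y-linked RNA by −0.57 in mean log2 CPM. The call was also lost when the change itself was tested against 1.5-fold (edgeR adjusted p = 0.604). Exons of Mzb1 overlap those of a neighboring gene on the same strand.

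Fkbp11, a peptidyl-prolyl isomerase of secretory cells, was at 1.59, 1.40 and 2.36 CPM in cKO and at 1.99, 1.07 and 1.51 CPM in control replicates. The libraries overlapped, and the log2 fold change was 0.22 with a 95% interval of −0.54 to 0.99 (edgeR adjusted p = 0.629). Libraries with Xist RNA differed by −0.06 and those with Y-linked RNA by 0.35 in mean log2 CPM. An increase of nearly 2-fold or a modest decrease would both lie within this interval.

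Sdc1 (chromosome 12, 8771323 to 8793715, plus strand), which encodes syndecan-1 (CD138), the surface proteoglycan commonly used to identify plasma cells, went the other way. Its level was 15.0, 14.6 and 13.0 CPM in cKO and 4.43, 5.65 and 4.01 CPM in control replicates. Every cKO library exceeded the highest control library by more than 2-fold. Sdc1 rose by a log2 fold change of 1.60 (standard error 0.153; 95% interval 1.26 to 1.94; edgeR adjusted p = 2.06e-05), or 3.02-fold. Sdc1 counts per Prdm1 count were 0.833, 0.874 and 0.656 in cKO and 0.0796, 0.152 and 0.150 in control libraries, a 6.35-fold difference on the scale of log2 CPM with a prior count of 2. Sdc1 is also expressed by cells other than B cells, fibroblasts among them, so the feeder cell markers were examined beside it. The cells were sorted as YFP+, and 40LB cells are not described as carrying the reporter. How far the sort removed RNA of 40LB cells was not tested. Of 12 fibroblast markers, 11 were tested, 1 was lower (Lox) and 2 were higher (Fn1 and Fbn1). The share called was 27.3%, against 21.0% of all tested genes. The fibroblast markers summed to 107 to 132 CPM in cKO and 80.4 to 152 CPM in control libraries, and the marker Postn was at 0 in every library. Fbn1 was at 4.56, 3.09 and 4.05 CPM in cKO replicates and at 0 counts in the controls. Fn1 was at 38.3, 46.8 and 35.7 CPM in cKO and 22.4, 21.4 and 13.6 CPM in control replicates. Lox went the other way, with a log2 fold change of −1.52 and groups that overlapped. The median log2 fold change of the 11 tested fibroblast markers was −0.42. The 8 myeloid markers summed to 13.5 to 18.8 CPM in cKO and 4.66 to 11.4 CPM in control libraries. Only 3 of them passed the filter, with 2 higher by edgeR (Adgre1 and Mpeg1) and 1 by DESeq2. Among all tested genes, edgeR called 10.4% higher. The groups overlapped for Mpeg1, at 8.13 CPM in cKO replicate 2 and 8.91 CPM in control replicate 3. The part of other cells in the level of Sdc1 was not tested.

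Tnfrsf17, which encodes the BAFF and APRIL receptor BCMA of plasma cells, was near the detection limit. It had 4, 0 and 0 counts in cKO and 0, 0 and 3 counts in control replicates, and it did not pass the filter. A difference was not detectable at this depth.

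**Figure D2:**
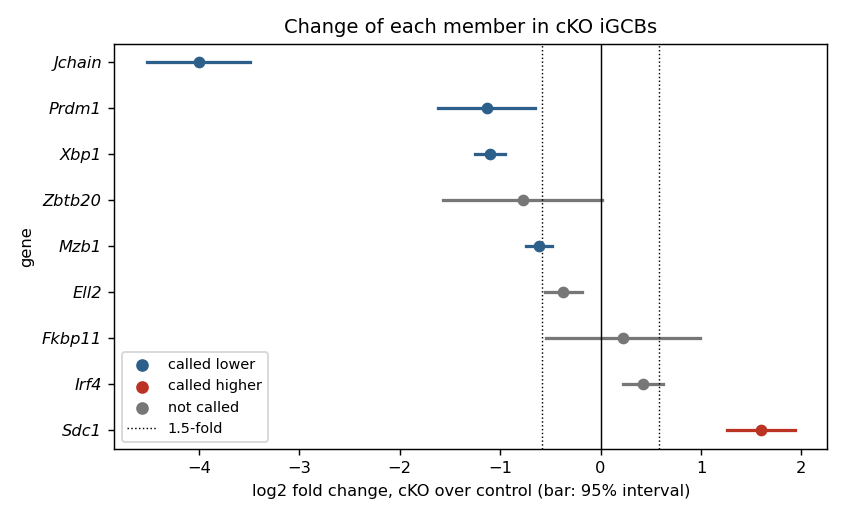
Log2 fold change of cKO over control for the 9 tested members (points) with 95% intervals from edgeR (bars), and dotted lines at 1.5-fold in each direction. Jchain stands at −4.00, Prdm1 and Xbp1 at −1.13 and −1.10, and Sdc1 at 1.60.

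Per kilobase of transcript, the order of the levels changed between the groups. In control iGCBs, the mean level was 571 CPM per kb for Mzb1, 127 for Xbp1, 86.7 for Irf4, 83.5 for Jchain, 14.8 for Ell2, 9.90 for Prdm1, 2.07 for Fkbp11 and 1.49 for Sdc1. Jchain and Irf4 stood next to each other there, and their control libraries overlapped. In cKO iGCBs, Irf4 was at 116 and Xbp1 at 59.2 CPM per kb, while Jchain, at 5.20, stood beside Prdm1 at 4.52 and Sdc1 at 4.50, with overlapping libraries for these 3 genes. Zbtb20 was at 0.073 and Tnfrsf17 at 0.030 CPM per kb in control iGCBs. Lengths were those of the GENCODE M21 transcript linked to the RefSeq transcript to which most counts of a gene were assigned.

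Whether Jchain fell with its regulators or apart from them was asked within each library, by taking the log2 CPM of Jchain minus the mean log2 CPM of Prdm1, Irf4 and Xbp1. This difference was −3.42, −4.22 and −4.16 in cKO and −0.38, −0.36 and −0.77 in control replicates. The groups were far apart compared with the spread inside them. The mean shift of −3.43 is a 10.8-fold decrease of Jchain relative to the regulators (exact permutation test over 20 assignments, two-sided, p = 0.1, the smallest value possible).

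The shift was seen against each regulator taken alone. Against Prdm1 it was −2.94: there were 0.553, 0.358 and 0.293 Jchain counts per Prdm1 count in cKO and 2.48, 3.36 and 3.22 in control libraries. These ratios are of counts, not adjusted for transcript length, and did not overlap between the groups. On the scale of log2 CPM with a prior count of 2, the shift is 7.70-fold. Against Xbp1 the shift was −2.91 and against Irf4 −4.43. Prdm1 and Xbp1 thus fell, as Jchain did, but by less in log2 units, and Irf4 was higher in every cKO library.

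Among the other members, the shift of Jchain was −3.40 against Mzb1, −3.64 against Ell2, −3.19 against Zbtb20, −4.24 against Fkbp11 and −5.61 against Sdc1. Against Tnfrsf17 it was −4.07, a value set by the prior count because Tnfrsf17 had almost no counts. All 9 comparisons had groups without overlap and an exact permutation p of 0.1, and 0.1 after Benjamini-Hochberg adjustment over the 9, so these tests could not reach 0.05 in this design.

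**Figure D3:**
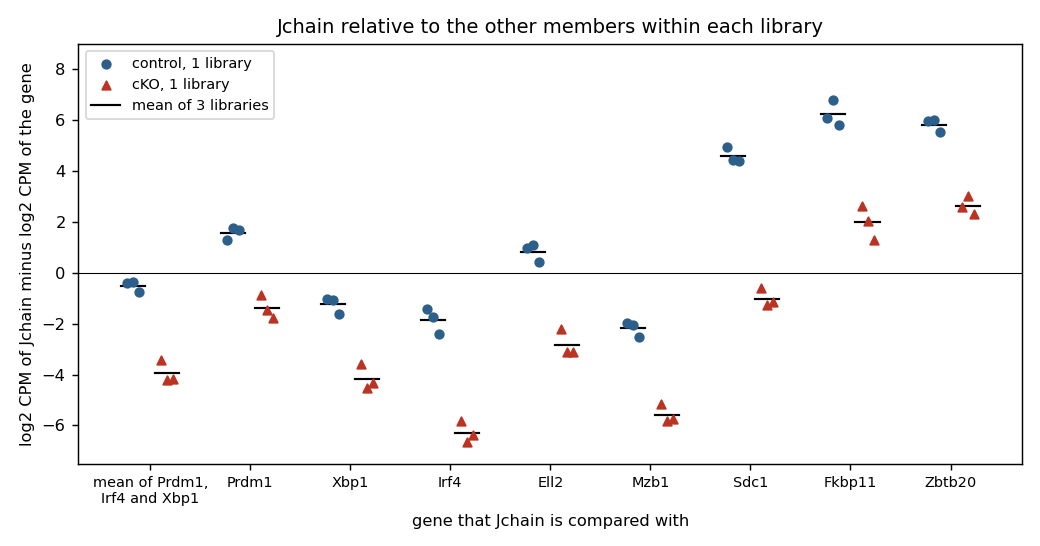
Log2 CPM of Jchain minus the log2 CPM of the gene on the x axis, or minus the mean of Prdm1, Irf4 and Xbp1 (leftmost), with 1 point per library (circles, control; triangles, cKO) and lines at the means. In each column the 3 cKO libraries lie below the 3 control libraries, and the difference of the means ranges from −2.91 for Xbp1 to −5.61 for Sdc1.

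The genes whose levels over the 6 libraries were most like those of Jchain were sought among 8513 tested genes with a mean of at least 10 CPM, by the root mean square difference of centred log2 CPM. The nearest was Trib3, a stress-induced pseudokinase, with a difference of 0.439. It was followed by Osgin1, an oxidative stress response gene (0.675), Gcsam, a signaling adaptor of germinal center B cells (0.679), Asns, the asparagine synthetase (0.812), and Slco4a1, an organic anion transporter (0.838). Trib3 was at 1.81, 2.33 and 1.06 CPM in cKO and 26.3, 28.7 and 29.6 CPM in control replicates, and Asns at 19.4, 22.8 and 15.6 against 112, 108 and 116 CPM. Neither shares the lower level that Jchain had in control replicate 3. By the same measure Xbp1 ranked 187, Prdm1 193, Mzb1 765, Ell2 1848 and Irf4 7246. This ranking is dominated by the difference between the groups and is given as a description.

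At the level of transcripts, 13.1% of 18040 tested transcripts were called by edgeR at the same cutoffs. Among the members' transcripts, those of Jchain, Prdm1, Xbp1 and Mzb1 were lower and that of Sdc1 was higher, which are the genes called above. The transcript of Prdm1 had an edgeR adjusted p of 0.0315 and lost its call when cKO replicate 1, 2 or 3 or control replicate 2 was left out and with the replicate number as a block; that of Mzb1 lost it without cKO replicate 3. No member had more than 1 tested transcript, so use of alternative transcripts was not tested for them.

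Other genes that rise in plasma cells were taken from a list of 28, of which 27 were tested. Of these, 10 fell, 1 rose and 16 were not called, so that 40.7% were called against 21.0% of all tested genes, and the median log2 fold change was −0.39. The largest decrease was that of Bhlha15 (Mist1), a transcription factor of secretory cells and a target of Xbp1, at 0.639, 0.511 and 0.33 CPM in cKO and 4.76, 4.83 and 2.40 CPM in control replicates (log2 fold change −3.01, edgeR adjusted p = 0.000108). Ccr10, a homing receptor of IgA plasma cells, and Cd93, a surface protein of long-lived plasma cells, fell by 2.09 and 1.96 on the log2 scale. Cxcr4, which directs plasma cells to the bone marrow and is also a receptor of germinal center B cells, was at 152, 155 and 152 CPM in cKO and 567, 417 and 426 CPM in control replicates. The gene that rose was Sec11c, a signal peptidase subunit (log2 fold change 0.67), and 2 genes of the list were called higher without control replicate 3. Tested against 1.5-fold, 6 of the 10 lower calls were left and Sec11c was not called.

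Of 36 genes of the endoplasmic reticulum and protein secretion, many of them known targets of Xbp1, 3 fell, 1 rose and 32 were not called, a share called of 11.1% against 21.0% of all tested genes, and the median log2 fold change was −0.09. Those that fell were Sec24d, a COPII coat subunit (−1.62), Herpud1, a component of ER-associated degradation (−1.43), and Edem1, which targets misfolded glycoproteins for degradation (−0.78). Calr, the chaperone calreticulin, rose by a log2 fold change of 0.66; without control replicate 2, or tested against 1.5-fold, 0 genes of the list were called higher by edgeR, against 7 at an unadjusted p under 0.05 with all libraries and 1 called by DESeq2. Hspa5, the chaperone BiP, was at 1049, 1114 and 995 CPM in cKO and 934, 855 and 1089 CPM in control replicates, which overlapped.

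Genes that process the heavy chain mRNA, the group to which Ell2 belongs, were measured from a list of 11. Zfp318, a zinc finger protein that governs the choice between IgM and IgD transcripts, was at 44.8, 40.1 and 39.3 CPM in cKO and 79.6, 77.3 and 91.2 CPM in control replicates. It fell, as did the elongation factors Ell3 (log2 fold change −0.91) and Aff1 (−0.66), and 8 genes were not called. The share called was 27.3%, against 21.0% of all tested genes, and 1 of the 3 calls was left when the change was tested against 1.5-fold. No gene of the list was higher by edgeR or by DESeq2, and 0 were higher at an unadjusted p under 0.05.

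Of 22 genes that plasma cells silence, 5 fell and 1 rose, which is 27.3% called against 21.0% of all tested genes. Prdm1 represses Pax5, which was at 193, 189 and 208 CPM in cKO and 131, 151 and 138 CPM in control replicates (log2 fold change 0.49, under the fold cutoff). The groups did not overlap for Pax5. Bcl6, the germinal center repressor, was at 82.2, 81.3 and 86.8 CPM in cKO and 110, 99.9 and 103 CPM in control replicates (log2 fold change −0.32), also under the cutoff. Id3, an inhibitor of E proteins, fell by 1.93 on the log2 scale, and Cr2, the complement receptor, rose by a log2 fold change of 1.17. The other 16 listed genes were not called, and the median log2 fold change of the list was −0.19.

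Genes that act upstream of Prdm1 were taken from a list of 15, of which 4 rose and 2 fell (40% called, against 21.0% of all tested genes), with a median log2 fold change of −0.08. Il2ra, the IL-2 receptor α chain, was at 35.5, 32.2 and 28.1 CPM in cKO and 7.47, 8.09 and 9.33 CPM in control replicates (log2 fold change 1.95). Il21r, the receptor for IL-21, a strong inducer of plasma cells, rose by a log2 fold change of 1.07. Nfkb1 and Stat5a rose by 0.83 and 0.69. Id2, an inhibitor of E proteins, and Il6st, the shared signaling chain of IL-6 receptors, fell by 1.22 and 0.89.

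**Figure D4:**
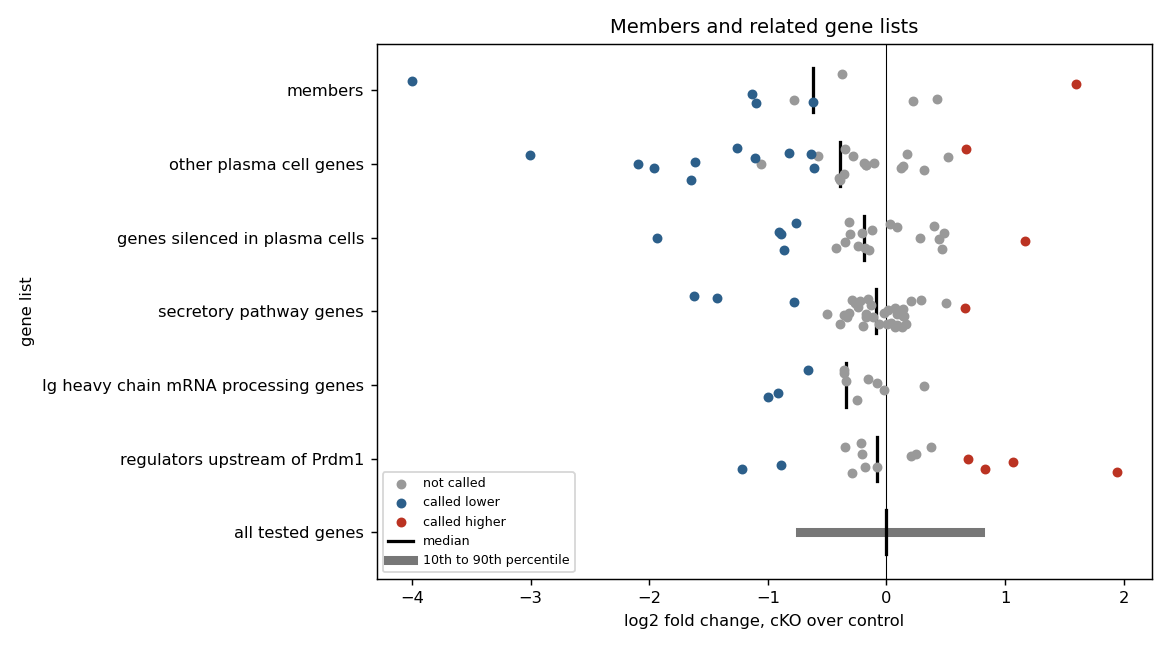
Log2 fold change of cKO over control for each tested gene (points; vertical jitter only separates them) of the members and 5 gene lists, with the median of each as a line, above the 10th to 90th percentile range of all tested genes (−0.73 to 0.79). The medians are −0.62 for the members, −0.39 for other plasma cell genes and −0.09 for secretory pathway genes.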

How the data were processed

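RNA-seq covered sorted YFP+ iGCBs of 3 cKO and 3 control mice. Per the labels and the study's methods, the authors aligned trimmed reads to mm10 with HISAT2 and ran StringTie, whose prepDE script gave the deposited estimated counts for each gene and each RefSeq transcript. They are whole numbers and not normalized; rounding changed nothing. Versions, the strand setting and the read length given to prepDE are not given in the sources used here. The labels' general protocol gives a longer culture than the 3 days of the sample titles.

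The tests were run with edgeR 4.0.16 (R 4.3.3): filterByExpr with a minimum count of 10, TMM, and the quasi-likelihood test of cKO against control over all genes, with Benjamini-Hochberg adjustment; the scripts were tested on simulated data. Genes were called at an adjusted p under 0.05 with more than a 1.5-fold change. The level of Jchain relative to other members was compared by exact permutation of log2 CPM differences (prior count 2). DESeq2 1.42.0 and the other alternatives are given in the closing section. Totals of 39079582 to 45504570 counts per library set the precision.

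The members, gene lists and tests were chosen with earlier results of these data known. Named were the members, in each list up to 3 called genes with the largest change (mean from 1 CPM up), and 5 genes with the profile most like that of Jchain; Cxcr4, Sec11c, Calr, Hspa5, Pax5, Bcl6, Nfkb1, Stat5a, Il6st, Klf2, Fas, Cd3e and Postn were chosen after their values were seen. Of the genes this rule names, 1 is not reported here. Tent5c was matched under its older symbol Fam46c. Gene positions come from GENCODE M21 (GRCm38) by symbol. Transcript lengths are those of GENCODE M21 transcripts linked to RefSeq accessions, and promoters are from RefSeq on GRCm38.p6.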

Additional observations from a re-analysis of the deposited data

How the results depend on the processing

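Jchain, Prdm1, Xbp1 and Sdc1 kept their direction and their calls under all 16 alternatives run. The log2 fold change of Jchain ranged from −4.30 to −3.86, that of Prdm1 from −1.35 to −0.81, that of Xbp1 from −1.17 to −1.05, and that of Sdc1 reached at most 1.74. The largest edgeR adjusted p of Prdm1 was 0.0453, when the change was tested against 1.5-fold. Fkbp11, which was not called, lay between −0.031 and 0.47 when libraries were left out singly, negative without cKO replicate 3; the cause was not tested.

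A test that the change exceeds 1.5-fold left 580 genes lower and 584 higher of all genes tested, in place of 1415 and 1378, and 4 higher genes on the 5 lists of pathway genes in place of 7. Without the fold change cutoff, 3264 genes were lower and 3204 higher, 54 list genes were lower in place of 23 and 21 were higher, and 2 members were higher in place of 1, Irf4 being added. Ell2 was then also called lower. Both alternatives move the counts by their own construction. With each library left out in turn, members called lower numbered 3 to 5, and member transcripts called lower 2 to 4: without cKO replicate 3 the transcripts of Mzb1 and Prdm1 lost their calls. The difference of Jchain from its regulators kept its direction with each library left out, with a prior count of 0.25 and against the mean of the other 9 members, with values from −3.83 to −3.29. The value of −3.83 is that against the other 9 members, and it depends in part on the prior count because Tnfrsf17 is among them.

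Whether the replicate numbers pair the mice was not settled. Deviations of same-numbered libraries from their group means correlated at 0.00851, 0.0839 and 0.133, the last being the highest of any cKO and control library. By contrast, cKO replicate 2 correlated more with control replicate 1 (0.103) than with its own number. Deviations from the mean of 3 libraries are tied to each other, so these correlations cannot decide it. With the replicate number as a block, edgeR called 4 members lower and 1 higher, 1398 genes lower and 1337 higher, and 3 member transcripts lower, without that of Prdm1; the shift of Jchain from its regulators was −3.43 (exact permutation of signs, p = 0.25, the smallest possible with 3 pairs). Leaving out immunoglobulin genes was not run, since the 12 constant genes looked for had no match among the counted genes. Depth limits Tnfrsf17, which had at most 4 counts in a library, and the 3 mice per group limit the exact tests between groups to a p of 0.1 or more.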

Other observations

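Germinal center and naïve B cell markers were also measured, and the call was made for 21.0% of all tested genes. Of 8 germinal center B markers, 4 were lower in cKO iGCBs by edgeR, among them Gcsam, at 7.60, 6.65 and 6.18 CPM in cKO and 56.1, 49.9 and 31.2 CPM in control replicates, Mef2b, a transcription factor acting on Bcl6 (log2 fold change −1.67), and Mybl1 (−0.93). The markers summed to 283 to 296 CPM in cKO and 384 to 460 CPM in control libraries. None was called higher by edgeR or DESeq2. At an edgeR adjusted p under 0.05, 1 was higher but under the fold cutoff. It was Fas, at 93.7, 88.5 and 94.6 CPM in cKO and 69.0, 74.0 and 65.4 CPM in control replicates. Of 7 naïve B markers measured, S1pr1, the receptor that guides lymphocytes out of tissues (−1.24), Ccr7 (−0.89) and Klf2 (−0.85) fell, Cr2 rose (1.17) and 3 were not called.

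Pan-B markers were not called by edgeR or by DESeq2 (0 of 6). At an edgeR adjusted p under 0.05, 2 were lower and 4 higher, all under the fold cutoff. Of 8 T cell markers, 2 were tested and both were lower (Cd5, log2 fold change −1.78, and Lck, −0.64), and Cd3e, the defining marker of T cells, was at 0 in every library. Gcsam and Jchain shared their lowest control level in replicate 3, at 31.2 and 86.2 CPM, as did Prdm1 at 26.7 CPM.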
